A study of Xenopus laevis with 6 samples.

Results

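The genes described here build the contacts between cells and the keratin skeleton that some of those contacts anchor: claudins, occludin and their scaffold proteins, cadherins and protocadherins, catenins, desmosome proteins, connexins, keratins and epcam. They were chosen by name, by the beginning of the gene symbol that the array's annotation gives (cldn, cdh, pcdh, tjp, ocln, krt, dsc, dsp, epcam, jup, pkp, ctnna, ctnnd, gja to gjd, f11r, marveld, cgn, ppl and evpl among them). The rule uses no measured value, but it was set with earlier results of these data known. Shares of members set beside those of all genes are therefore descriptive. A gene with several probe sets, the groups of short probes that measure a transcript, was represented by the probe set with the highest mean. The rule found 77 genes among the 7531 named on the array, measured by 95 probe sets in all. By role they were 9 claudins, 1 claudin-domain gene, 4 other tight junction membrane proteins, 5 tight junction scaffold proteins, 8 cadherins, 5 protocadherins, 4 catenins, 10 desmosome genes, 5 connexins, 23 keratins, 2 epcam genes and 1 keratinocyte-associated gene, krtcap3.L.

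The samples were pancreas, liver and stomach buds dissected from Xenopus laevis tadpoles at stage 42, when the dorsal and ventral pancreatic buds have fused. The labels name no treatment, mutation or transgene in any group, and give mixed sex for all of them. Each organ was isolated in 2 separate experiments, numbered 1 and 2, with 1 array each, so there were 6 arrays, and the sources used here do not say how many buds were pooled for one. A bud holds both endoderm and mesoderm, so that epithelium, muscle, vessels and blood contribute to one value. In such bulk tissue a low value from fewer cells of a type and one from less RNA per cell cannot be told apart. Xenopus laevis is allotetraploid, and most genes exist as a copy on a long chromosome (.L) and one on a short chromosome (.S), which were counted as separate genes.

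Epithelial cells are sealed and joined in layers. Tight junctions, made of claudins and occludin, close the space between neighbours and are held at the membrane by scaffold proteins. Adherens junctions join cadherins through catenins to actin, desmosomes join desmosomal cadherins through plakoglobin and plakins to keratin filaments, and connexin channels let ions and small molecules pass between cells. Simple epithelia of the gut and its glands carry keratins of the simple type, of which the type II protein pairs with a type I protein to form a filament.

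Intensities are on the deposited linear scale, on which every array has a median of 100. Arrays of the same organ correlated at 0.946 to 0.955 over all probe sets on the log2 scale, and arrays of different organs at 0.85 to 0.904. Differences were tested with limma on log2 intensity, adjusted by the Benjamini-Hochberg method over 15491 probe sets, and a gene was called at an adjusted p under 0.05. Having only 2 arrays for an organ limits the precision, and an exact two-sided permutation test of 2 against 2 arrays cannot go below p = 0.333. Folds are ratios of geometric means. The table gives no detection calls, and 36 of the 77 genes had a mean under 100 over the 6 arrays, 13 of them under 16. The median residual SD of the members was 0.63 on the log2 scale for the 36 under 100 and 0.28 for the other 41.

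Of the 77 genes, 20 were called among the 3 organs, which is 26% against 14.7% of all named genes. Of these 77, 22 had a call in the test among organs or in a pair, and 55 had none. The same wider criterion, used in the counts by role, held for 17% of all named genes. Between pancreas and liver 7 genes were called, all 7 higher in pancreas and 0 lower, against 7.21% of all genes called, 3.27% higher and 3.94% lower. The share of members, 9.09%, was close to that background. Between pancreas and stomach 14 genes were called, 8 higher and 6 lower in pancreas, which is 18.2% against 9.31% of all genes, 4.41% higher and 4.9% lower. With quantile normalization the split was 8 higher and 10 lower. Between liver and stomach 12 genes were called, 2 higher and 10 lower in liver, which is 15.6% against 11.2% of all genes, 5.82% higher and 5.34% lower. The median log2 difference of the members was 0.15 for pancreas minus liver, 0.11 for pancreas minus stomach and -0.29 for liver minus stomach, beside 0.07, 0.12 and 0.04 over all genes. Organs did not overlap for 40 members between pancreas and liver, 49 between pancreas and stomach and 55 between liver and stomach, beside 58.4%, 61.9% and 57.2% of all genes. The sign of the difference was the same in both isolations for 54 of the 77 between pancreas and liver, 61 between pancreas and stomach and 62 between liver and stomach. The share of all genes with the same sign is not given here, so these counts cannot be read as particular to the members. With the isolation as a block, 12 genes were called between pancreas and liver, 9 higher and 3 lower in pancreas. The shares of all genes called with the block or with quantile normalization are not given here. Leaving out 1 array leaves an organ with a single array, assumed to vary as the other organs do, and the calls over all probe sets then also fell: there were 105 to 552 against 969 between pancreas and liver, 0 to 731 against 1236 between pancreas and stomach, and 303 to 966 against 1485 between liver and stomach. None of the 33 calls of a gene in a pair of organs held in all 6 fits that left out 1 array each, and 10 held in none: those of ocln.S, krt18.1.L, krt18.1.S, krt19.S, ctnna1.S, jup.S, dsc3.S and gjb2.L. Leaving out stomach replicate 1 kept 3 of the 33, and the other arrays kept 9 to 18. Cldn6.1.L between pancreas and liver was lost only without liver replicate 1 (adjusted p = 0.0506), and cldn4.L and tjp3.L between liver and stomach only without stomach replicate 1 (0.057 and 0.0554).

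**Figure D1:**
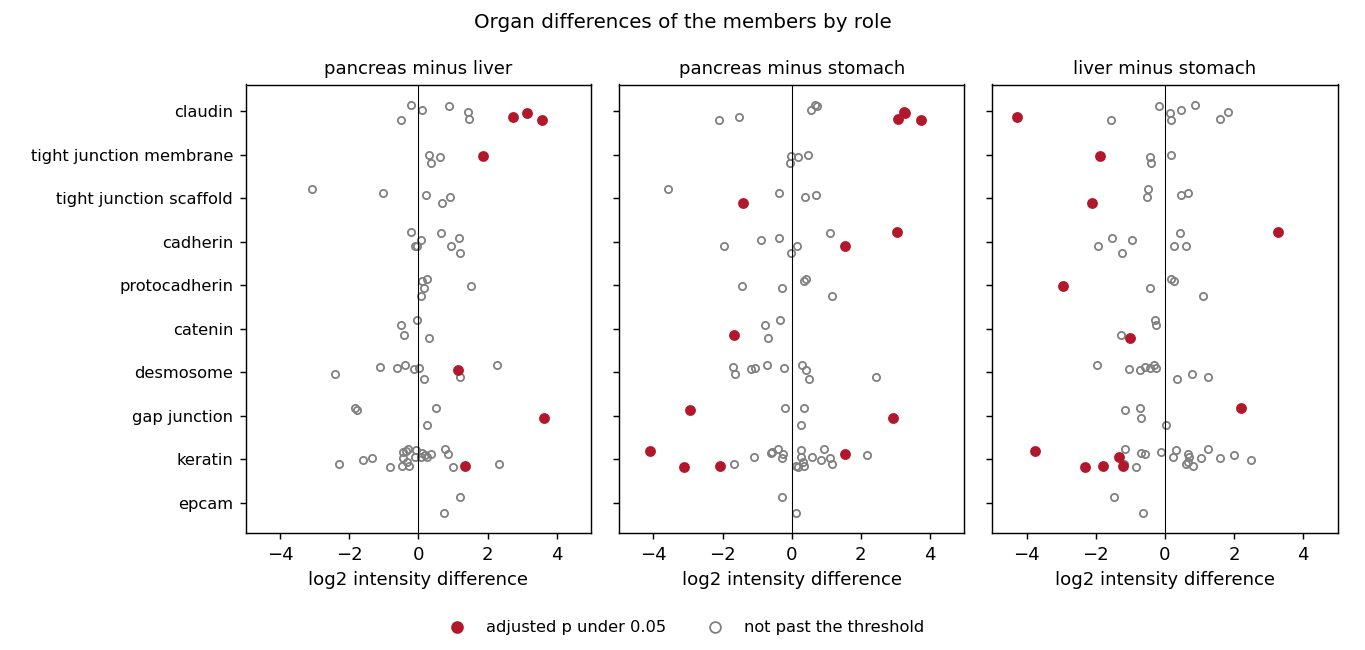
Log2 intensity difference (horizontal axis) of each gene by role (rows), in 1 panel per pair of organs, where filled red points passed an adjusted p of 0.05, open grey points did not, and cldnd1.L and krtcap3.L are left out. In the claudin row 3 points against liver and 4 against stomach are red on the side of higher in pancreas, and in the keratin row 5 points are red on the side of lower in liver than in stomach.

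Claudins form the strands of the tight junction, and 5 of the 9 measured were called. The pancreas was high for both copies of cldn6.1 and cldn6.2, and the liver was low for cldn4.L. The .L copy of cldn6.1 had 550 and 437 in pancreas, 36.2 and 46.4 in liver and 31.4 and 42.5 in stomach. Both pancreas arrays were far above all 4 others. The mean was 493.7 ± 79.4 in pancreas, 41.3 ± 7.2 in liver and 36.9 ± 7.8 in stomach (SD, n = 2 each). Its pancreas value exceeded that of liver 12-fold (difference on the log2 scale 3.58, SE 0.27, adjusted p = 0.00726) and that of stomach 13.4-fold (3.75, SE 0.27, adjusted p = 0.00856). Liver and stomach did not separate (0.17, adjusted p = 0.769).

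The .S copy of cldn6.1 had 1584 and 1574 in pancreas, 171 and 190 in liver and 124 and 215 in stomach. Its pancreas value was 8.76-fold higher than in liver (adjusted p = 0.0111) and 9.69-fold higher than in stomach (adjusted p = 0.0115), with SE 0.31 on the log2 scale for both. In the main fit, which had no block, only these 2 copies and the connexin gene gjc1.L were called higher in pancreas than in each other organ. They are 3 of 77 genes, beside 1.71% of all genes. With 16 added to every intensity, cldn6.2.S and cdh3.L were called so too.

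The neighbouring gene cldn6.2 lay highest in pancreas and lowest in stomach. Its .L copy had 4279 and 3638 in pancreas, 1555 and 1351 in liver and 253 and 671 in stomach. No organs overlapped, and in ratio the stomach arrays lay farther apart than the arrays of pancreas or liver. It was 9.58-fold higher in pancreas than in stomach (log2 difference 3.26, SE 0.48, adjusted p = 0.027). That fold was 5.88 without stomach replicate 1 and 15.6 without stomach replicate 2. The .S copy had 3093 and 3059 in pancreas, 994 and 1243 in liver and 266 and 503 in stomach, an 8.41-fold difference between pancreas and stomach (3.07, SE 0.35, adjusted p = 0.0166). The pancreas minus liver differences (1.44 and 1.47 for .L and .S) did not pass (adjusted p = 0.156 and 0.0814). Neither did the liver minus stomach differences (1.82 and 1.6, adjusted p = 0.0905 and 0.0547), and none of these passed with the block. With 16 added to every intensity both differences of .S passed (adjusted p = 0.0272 and 0.0162). The liver minus stomach difference of .L then passed too (0.0322). The probe set of the .S copy is of a class whose probes are shared between genes, so it may also read the .L transcript.

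Cldn4.L had 328 and 388 in pancreas, 35.4 and 80.2 in liver and 1080 and 978 in stomach. The liver was lowest and the stomach highest, with no overlap. Pancreas exceeded liver 6.7-fold (2.74, SE 0.42, adjusted p = 0.0294) and 19.3-fold lower in liver than in stomach (-4.27, SE 0.42, adjusted p = 0.00819). The pancreas value, 2.88-fold lower than the stomach value, did not pass (adjusted p = 0.0969). The liver folds rested on which liver array was kept: pancreas over liver was 4.45 without liver replicate 1 and 10.1 without liver replicate 2, and liver was 12.8-fold and 29.1-fold lower than stomach.

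The other 4 claudins had no call. Cldn5, the claudin of vessel endothelium in mammals, ran at 537 and 347 in pancreas, 522 and 477 in liver and 378 and 196 in stomach for .L, and at 567 and 456, 551 and 416, and 389 and 305 for .S in the same organs. The endothelial markers around it, 8 genes, summed to 855 and 783 in pancreas, 1295 and 1132 in liver and 683 and 631 in stomach, and 5 of the 8 were called higher in liver than in stomach. Cldn7.L had 3509 and 2560 in pancreas, 2187 and 1203 in liver and 2016 and 1641 in stomach by the probe set that stood for it. A further probe set of cldn7.L disagreed, with 590 and 530 in pancreas, 28.3 and 34.8 in liver and 321 and 255 in stomach, and was called in both pairs with liver (log2 difference 4.16 and -3.19). Another showed no call. Cldn1.S was low, at 5.54 and 7.36 in pancreas, 20.4 and 4.1 in liver and 20.6 and 35.7 in stomach. A further probe set of cldn1.S, with 7.49 and 6.21 in pancreas, 1.09 and 1.44 in liver and 8.04 and 11.6 in stomach, was called higher in pancreas than in liver (2.44, adjusted p = 0.0152) and lower in liver than in stomach (-2.94, adjusted p = 0.00796). Cldnd1.L, a claudin-domain gene, had 457 and 490, 585 and 533, and 461 and 447 in pancreas, liver and stomach.

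**Figure D2:**
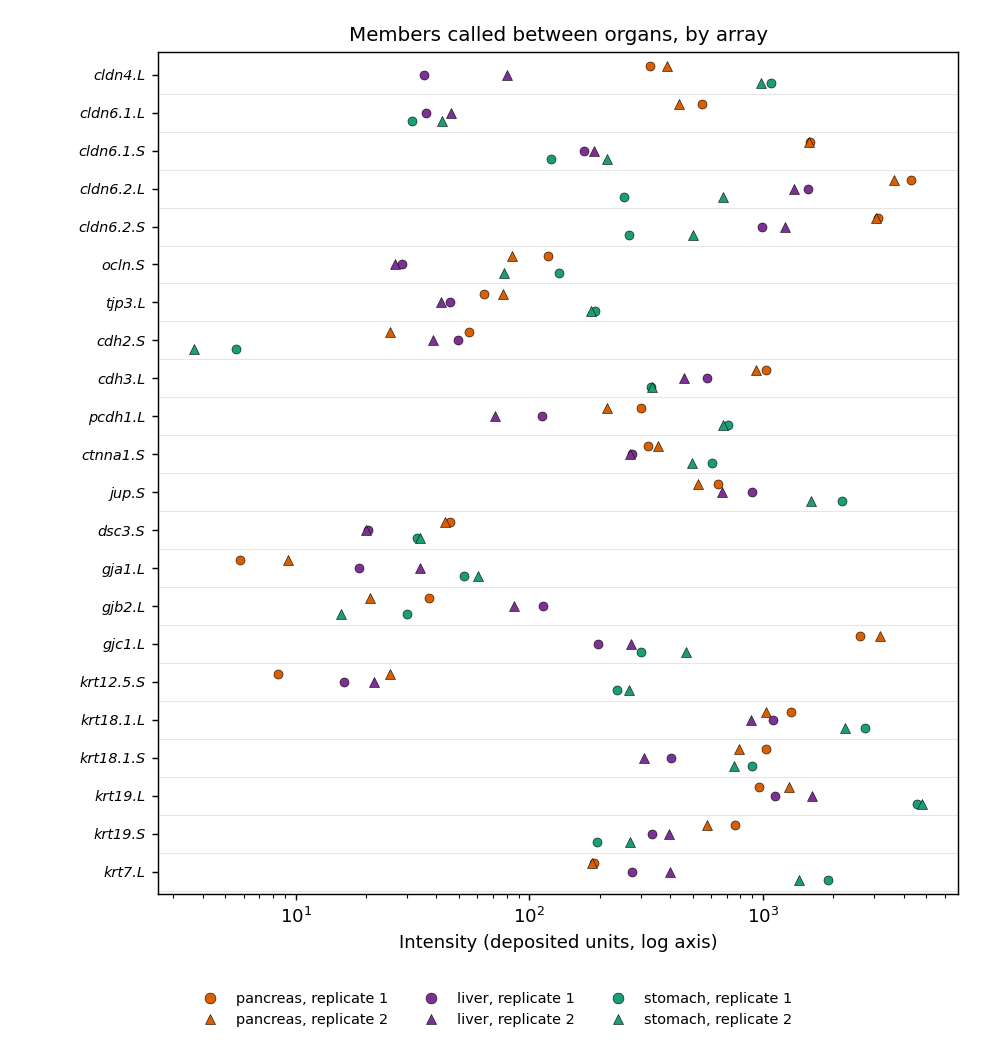
Intensity of the 22 genes with a call on each of the 6 arrays, on a log axis, with pancreas, liver and stomach in separate colours and replicates 1 and 2 as circles and triangles. For cldn6.1.L, cldn6.1.S and gjc1.L both pancreas points lie above all 4 other points, and for krt7.L and krt12.5.S both stomach points do.

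Occludin, the membrane partner of claudins in the strand, was low in liver. Ocln.S had 120 and 83.9 in pancreas, 28.4 and 26.5 in liver and 134 and 77.6 in stomach. The pancreas and stomach values overlapped each other, and neither overlapped the liver values. Pancreas exceeded liver 3.66-fold (1.87, SE 0.35, adjusted p = 0.0458) and 3.72-fold lower in liver than in stomach (-1.89, SE 0.35, adjusted p = 0.0348). A further probe set of ocln.S gave log2 differences of 1.97 and -1.74 that did not pass. The junctional adhesion molecule f11r had no call in either copy. The .L copy had 1438 and 1011 in pancreas, 1093 and 822 in liver and 1392 and 1123 in stomach, and the .S copy 1816 and 1322 in pancreas, 1353 and 761 in liver and 1655 and 1148 in stomach. The liver mean was the lowest in both copies, and the liver and stomach arrays did not overlap for .L. Marveld3.L had no call either.

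Tight junction scaffold proteins link the strand to actin, and 1 of the 5 was called. Tjp3.L, which encodes a zonula occludens protein, had 63.7 and 76.8 in pancreas, 45.7 and 42 in liver and 191 and 184 in stomach. Both stomach arrays were above all others. It was 2.68-fold lower in pancreas than in stomach (-1.42, SE 0.2, adjusted p = 0.0243) and 4.28-fold lower in liver than in stomach (-2.1, SE 0.2, adjusted p = 0.00786). Its other copy, tjp3.S, had 34 and 37.8 in pancreas, 27.4 and 34.6 in liver and 18.2 and 27.3 in stomach, with no call. Cingulin, cgn.L, had 955 and 780 in pancreas, 562 and 378 in liver and 685 and 635 in stomach, with no call. Of the cingulin-like gene cgnl1, the .S copy had 4.09 and 17.6 in pancreas, 66.4 and 78.8 in liver and 73.7 and 140 in stomach. Its pancreas minus stomach difference of -3.58 missed the threshold (adjusted p = 0.0529) and passed it with the isolation as a block (adjusted p = 0.0413). With 16 added to every intensity that difference was -2.19 (adjusted p = 0.00907). The brighter .L copy had 237 and 193 in pancreas, 514 and 374 in liver and 269 and 286 in stomach. It had no call (pancreas minus stomach -0.37, adjusted p = 0.401, and liver minus stomach 0.66, adjusted p = 0.188).

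Classical cadherins hold cells together at adherens junctions, and 2 of the 8 cadherins were called. Cdh3.L, a maternal and epithelial cadherin of Xenopus, had 1025 and 932 in pancreas, 578 and 457 in liver and 332 and 336 in stomach. It was 2.93-fold higher in pancreas than in stomach (1.55, SE 0.21, adjusted p = 0.0227), and its liver value, in between, was not called against either. The .S copy had 466 and 528 in pancreas, 367 and 270 in liver and 193 and 278 in stomach, in the same order, with no call (pancreas minus stomach 1.1, adjusted p = 0.085).

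Cdh2.S, a copy of N-cadherin, the cadherin of neural and mesenchymal cells, had 55.2 and 25.4 in pancreas, 49.5 and 38.8 in liver and 5.53 and 3.69 in stomach. It was 8.29-fold higher in pancreas than in stomach (3.05, SE 0.45, adjusted p = 0.0263) and 9.7-fold higher in liver than in stomach (3.28, SE 0.45, adjusted p = 0.0173). These values lie under the array median. With 16 added to every intensity the folds were 2.64 and 2.91. Cdh2.S was the only member called lower in stomach than in both other organs in the main fit, beside 1.45% of all genes. With 16 added, both copies of cldn6.2 were called so too. Cdh2.L had 112 and 121 in pancreas, 103 and 24.5 in liver and 103 and 135 in stomach, with no call. A further probe set of cdh2.L had 68.3 and 69.4 in pancreas, 62 and 58.8 in liver and 35.2 and 27.2 in stomach. This probe set was called higher in pancreas than in stomach (1.15, adjusted p = 0.0417). Another of cdh2.L had no call (pancreas minus stomach -0.09, adjusted p = 0.907).

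E-cadherin, cdh1.S, had 260 and 92.7 in pancreas, 96.8 and 49.9 in liver and 346 and 117 in stomach, with no call. Replicate 1 was the higher array in every organ. Its liver minus stomach difference of -1.53 was not called (adjusted p = 0.3) and passed with the block (adjusted p = 0.0363). Cdh11.S, the cadherin of loose mesenchyme, had 72.7 and 126 in pancreas, 76.4 and 127 in liver and 296 and 476 in stomach. Both differences from stomach, -1.97 and -1.93, missed the threshold (adjusted p = 0.0607 and 0.0596) and passed it with the block (0.0274 and 0.0177). The smooth muscle markers, 5 genes, also stood higher in stomach: they summed to 1193 and 734 in pancreas, 600 and 513 in liver and 10396 and 6987 in stomach, with 5 of 5 called lower in pancreas and 4 of 5 called lower in liver. Their part in the stomach values of the members was not tested.

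Among the 5 protocadherins, relatives of the classical cadherins, pcdh1.L was called. It had 302 and 216 in pancreas, 113 and 71.5 in liver and 707 and 673 in stomach, and no organs overlapped. It was 7.69-fold lower in liver than in stomach (-2.94, SE 0.31, adjusted p = 0.00969). The pancreas lay between, at a log2 difference of 1.51 from liver and -1.43 from stomach (adjusted p = 0.0594 and 0.0586). Both passed with the block (0.0433 and 0.045). The other 4 ran between 11.4 and 134 on all arrays with no call.

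Catenins tie cadherins to the skeleton, and both called catenins were highest in stomach. Jup.S encodes plakoglobin, which serves adherens junctions and desmosomes alike. It had 643 and 526 in pancreas, 895 and 666 in liver and 2170 and 1600 in stomach, a level 3.2-fold lower in pancreas than in stomach (-1.68, SE 0.28, adjusted p = 0.0326). The liver minus stomach difference of -1.27 missed the threshold (adjusted p = 0.0533) and passed with the block (0.0274). Jup.L had 780 and 633 in pancreas, 740 and 707 in liver and 961 and 818 in stomach, with no call. Ctnna1.S, an alpha catenin, had 323 and 355 in pancreas, 275 and 269 in liver and 604 and 496 in stomach, 2.01-fold lower in liver than in stomach (-1.01, SE 0.2, adjusted p = 0.0444). This call was lost with the block (adjusted p = 0.0559) and with the mean of its probe sets (adjusted p = 0.0725). The delta catenin ctnnd1.L had 742 and 769, 1147 and 1015, and 1366 and 1220 in pancreas, liver and stomach, with no call.

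Of the 10 desmosome genes 1 was called. Dsc3.S, a desmosomal cadherin, had 45.6 and 43.6 in pancreas, 20.5 and 20.1 in liver and 33.1 and 34.1 in stomach. The arrays of each organ lay close together, and pancreas was 2.19-fold higher than liver (1.13, SE 0.18, adjusted p = 0.0319). This call was lost with an intensity trend in the variance prior (adjusted p = 0.0812). The other 9 desmosome genes ran between 2.46 and 619 with no call by the probe sets that stood for them. Pkp3.S, a plakophilin of the desmosome plaque, had 282 and 161 in pancreas, 300 and 183 in liver and 619 and 378 in stomach. Its differences from stomach, -1.18 for pancreas and -1.04 for liver, passed with the block (adjusted p = 0.0382 and 0.0365) and not without it (0.177 and 0.233). Periplakin, ppl.L, had 121 and 44.7 in pancreas, 479 and 328 in liver and 413 and 130 in stomach. Its pancreas minus liver difference of -2.43 was not called (adjusted p = 0.129) and passed with the block (0.0418). A further probe set of ppl.L, with 8.87 and 14.3 in pancreas, 35.3 and 14.4 in liver and 124 and 94.1 in stomach, was called 9.58-fold lower in pancreas than in stomach (-3.26, adjusted p = 0.0292).

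Of the 5 connexins 3 were called. The order of the organs by mean differed between these genes, and only some of the differences behind each order were called. Gjc1.L had 2589 and 3180 in pancreas, 197 and 272 in liver and 302 and 467 in stomach. Its mean was 2885 ± 418 in pancreas, 234.6 ± 52.6 in liver and 384.7 ± 117 in stomach (SD, n = 2 each). Pancreas exceeded liver 12.4-fold (3.63, SE 0.31, adjusted p = 0.00938) and stomach 7.64-fold (2.93, SE 0.31, adjusted p = 0.0148). A further probe set of gjc1.L had 269 and 291 in pancreas, 40.9 and 73.4 in liver and 87.2 and 125 in stomach. It was called against liver (2.35) and not against stomach (1.42).

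Gjb2.L, a connexin of hepatocytes in mammals, was highest in liver, at 37.2 and 20.9 in pancreas, 114 and 85.9 in liver and 30.1 and 15.6 in stomach. It was 4.58-fold higher in liver than in stomach (2.19, SE 0.45, adjusted p = 0.0468), a call lost with quantile normalization (adjusted p = 0.051), and 3.02-fold with 16 added. The pancreas minus liver difference of -1.83 missed the threshold (adjusted p = 0.0865) and passed with the block (0.0319). Gja1.L, the most widespread connexin of vertebrate tissues, was lowest in pancreas, at 5.78 and 9.28 in pancreas, 18.7 and 34.2 in liver and 52.7 and 60.6 in stomach. It was 7.71-fold lower in pancreas than in stomach (-2.95, SE 0.39, adjusted p = 0.0217), or 3.09-fold with 16 added. Its pancreas minus liver difference of -1.79 passed with the block (adjusted p = 0.0384) and not without it (0.0687). A further probe set of gja1.L had 1.48 and 3.64 in pancreas, 8.2 and 2.69 in liver and 3.65 and 6.19 in stomach. It had no call (pancreas minus stomach -1.03, adjusted p = 0.417). Gja4.L and gja7.S had no call. RefSeq lists gjc1 among the synonyms of gja7.S, so gja7.S may be the other copy of gjc1.L. It had 154 and 217 in pancreas, 145 and 165 in liver and 128 and 182 in stomach (pancreas minus liver 0.24, pancreas minus stomach 0.26), and since the names differ the 2 were not compared as copies.

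Keratins made up 23 of the 77 genes and 6 of them were called. Most were low: 17 had a mean under 100, the array median, and 16 of those, apart from krt12.5.S, ran between 0.748 and 54.1 on all arrays with no call. These 16 include keratins of larval epidermis such as krt12.4 in both copies, and the epidermal markers, 8 genes with none called, summed to 178 to 183 in pancreas, 184 to 213 in liver and 154 to 185 in stomach. Of the 6 called, 5 were copies of krt7, krt18.1 and krt19, keratins of simple epithelia, and stomach was the high organ for 4 of the 6.

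Krt7.L, a type II keratin of ducts and gland epithelia in mammals, had 190 and 185 in pancreas, 276 and 400 in liver and 1892 and 1429 in stomach. It was 8.78-fold lower in pancreas than in stomach (-3.13, SE 0.27, adjusted p = 0.0114) and 4.95-fold lower in liver than in stomach (-2.31, SE 0.27, adjusted p = 0.0129). A further probe set of krt7.L, with 12.5 and 28.5 in pancreas, 17.1 and 12.9 in liver and 62.9 and 56.1 in stomach, gave folds of 3.14 and 4.0 in the same directions, not called (adjusted p = 0.0879 and 0.053). Krt12.5.S had 8.37 and 25.3 in pancreas, 16.1 and 21.6 in liver and 237 and 268 in stomach. The stomach arrays were the only ones above the array median. It was 17.3-fold lower in pancreas (-4.11, SE 0.55, adjusted p = 0.0217) and 13.5-fold lower in liver (-3.75, SE 0.55, adjusted p = 0.0202) than in stomach, or 8.44-fold and 7.7-fold with 16 added. Pancreas was 9.95-fold lower than stomach without pancreas replicate 1 and 30.1-fold lower without pancreas replicate 2.

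The type I keratin krt19 differed between its copies. Krt19.L had 960 and 1291 in pancreas, 1126 and 1616 in liver and 4576 and 4790 in stomach. It was 4.21-fold lower in pancreas (-2.07, SE 0.28, adjusted p = 0.0217) and 3.47-fold lower in liver (-1.8, SE 0.28, adjusted p = 0.0223) than in stomach. Krt19.S ran the other way, with 757 and 577 in pancreas, 336 and 395 in liver and 194 and 270 in stomach. It was 2.89-fold higher in pancreas than in stomach (1.53, SE 0.27, adjusted p = 0.0382), a call lost with the block (adjusted p = 0.0565).

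Krt18.1, the type I keratin that pairs with krt8 in simple epithelia, was called in both copies. Krt18.1.L had 1321 and 1025 in pancreas, 1100 and 886 in liver and 2729 and 2235 in stomach, 2.5-fold lower in liver than in stomach (-1.32, SE 0.25, adjusted p = 0.0372). Its pancreas minus stomach difference of -1.09 missed the threshold (adjusted p = 0.0658) and passed it with the block (0.0414) and with quantile normalization (0.0307). Krt18.1.S had 1030 and 788 in pancreas, 403 and 309 in liver and 898 and 755 in stomach. Pancreas exceeded liver 2.55-fold (1.35, SE 0.26, adjusted p = 0.049) and 2.33-fold lower in liver than in stomach (-1.22, SE 0.26, adjusted p = 0.0496). Krt8.1.S, the type II partner of krt18, had 5909 and 4905 in pancreas, 5492 and 4607 in liver and 8632 and 7667 in stomach. It had no call (adjusted p = 0.172 against stomach for pancreas and 0.131 for liver) and was called lower in both with quantile normalization (-0.92 and -1.14, adjusted p = 0.0443 and 0.0223). A further probe set of krt8.1.S gave differences from stomach of -0.46 for pancreas and -0.57 for liver. Neither was called (adjusted p = 0.281 and 0.215). The probe set that stood for krt8.1.S is of a class whose probes may also bind other transcripts. Over all members in the main fit, 4 genes were called higher in stomach than in both other organs, beside 3.04% of all genes. They were krt7.L, krt12.5.S, krt19.L and tjp3.L. Another 3 were lower in liver than in both, cldn4.L, ocln.S and krt18.1.S, beside 1.06%. In that fit none was called lower in pancreas (0.89% of all genes) or higher in liver (2.58%) than in both others. These patterns depended on the fit. With the block, gja1.L was called lower in pancreas than in both others (adjusted p = 0.0384 against liver). Gjb2.L was then called higher in liver than in both (0.0319 against pancreas), and krt18.1.L higher in stomach than in both. With 16 added, cgnl1.S was called lower in pancreas than in liver (0.021) and stomach (0.00907).

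**Figure D3:**
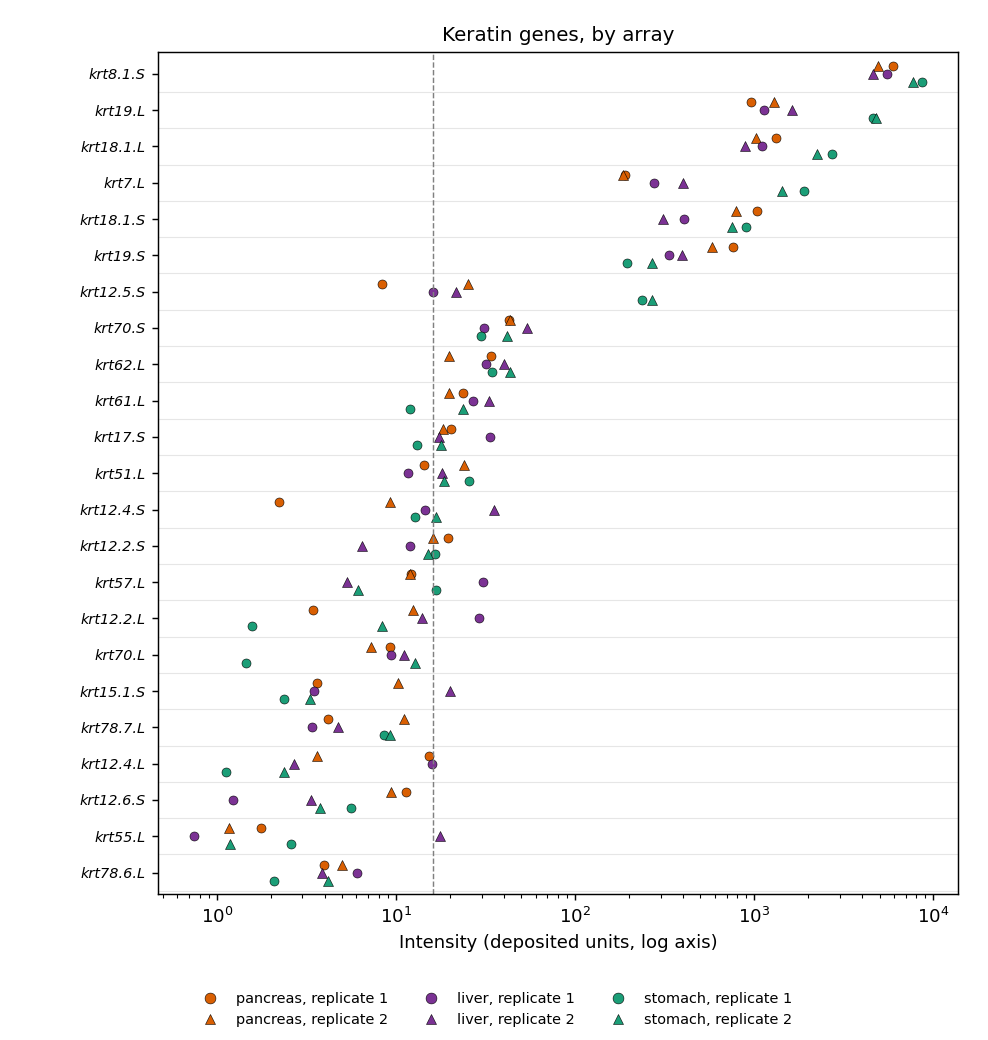
Intensity of all 23 keratins on each of the 6 arrays, on a log axis, with organs in separate colours, replicates 1 and 2 as circles and triangles, and a dashed line at 16. Krt7.L, krt12.5.S, krt19.L and krt18.1.L have both stomach points above all others, krt19.S has both pancreas points above all others, and the 16 genes in the rows under krt12.5.S show no separation that passed the test.

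Epcam is an adhesion protein of epithelial cell surfaces. Epcam.S had 2611 and 1966 in pancreas, 1528 and 1211 in liver and 2161 and 2031 in stomach, with no call. Epcam.L had 626 and 1160 in pancreas, 279 and 494 in liver and 711 and 1514 in stomach. Replicate 2 was the higher array in each organ. With the block, epcam.L was called higher in pancreas than in liver (1.2, adjusted p = 0.0418) and lower in liver than in stomach (-1.48, adjusted p = 0.0249), and without it neither was called (0.257 and 0.178). The erythrocyte markers, 6 genes, summed to 11903 and 11653 in pancreas, 37622 and 37907 in liver and 7934 and 8741 in stomach, with 3 called lower in pancreas than in liver and 4 called higher in liver than in stomach. Their part in the low liver values of cldn4.L, ocln.S and krt18.1.S was not tested.

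Both copies were measured for 18 genes, 36 of the 77 members. The difference between copies was tested on the ratio of .L over .S across the 1017 genes of the array with both copies, a test added after the values were seen. Between pancreas and stomach 2 of the 18 differed, beside 3.05% of the 1017. They were krt19, whose copies moved apart by -3.6 on the log2 scale (SE 0.36, adjusted p = 0.026), and tjp3, by -2.11 (SE 0.32, adjusted p = 0.0447). Between liver and stomach 3 differed, beside 5.01%: krt19 by -2.47 (adjusted p = 0.0354), tjp3 by -2.56 (adjusted p = 0.0296) and cdh2 by -4.51 (SE 0.76, adjusted p = 0.0408). The cdh2 value rests on the probe set of cdh2.L whose liver arrays were 103 and 24.5, with a liver minus stomach difference of -1.23. A further probe set of cdh2.L gave 0.96, in the direction of cdh2.S (3.28). Another gave -0.55, in the opposite direction. Between pancreas and liver none of the 18 was called, beside 1.67%. Krt18.1 narrowly missed between pancreas and stomach (-1.22, SE 0.2, adjusted p = 0.0508). With 16 added, 1 of the 18 was called between pancreas and liver, 5 between pancreas and stomach and 4 between liver and stomach. Of the 1017, 76, 75 and 100 were called in the same order. The genes added were krt18.1 in both pairs with pancreas, jup in both pairs with stomach, and cgnl1 between pancreas and stomach. With the block, krt19 and tjp3 were called between liver and stomach only (adjusted p = 0.0463 and 0.0357), and with any 1 array left out none of the 18 was called, where 0 to 2 of all 1017 were. For cldn6.1 the copies differed by 0.45 between pancreas and liver and by 0.47 between pancreas and stomach, and for cldn6.2 by -0.02 and 0.19, with no call. Probes of one copy may also bind the transcript of the other, which would make copies look more alike.

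**Figure D4:**
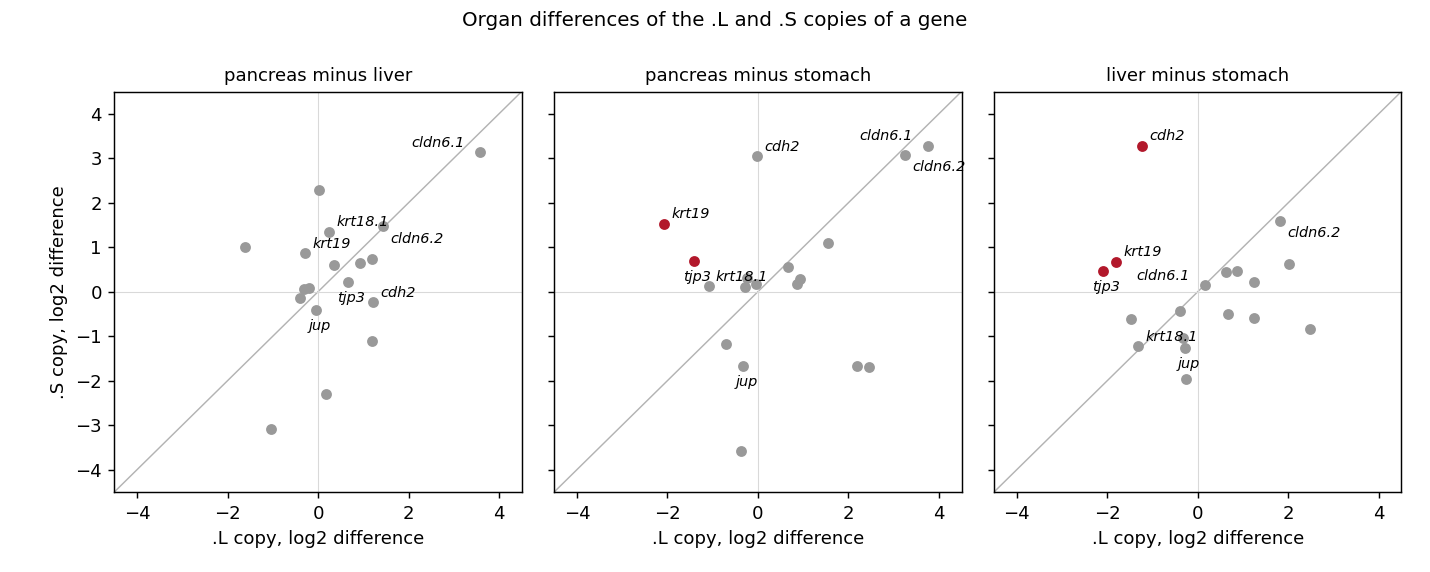
Log2 difference of the .S copy (vertical axis) against that of the .L copy (horizontal axis) for the 18 genes with both copies, one panel per pair of organs, with the line of equal differences. Red points are genes whose copies differed at an adjusted p under 0.05: krt19 and tjp3 against stomach in both panels, and cdh2 between liver and stomach.

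Several members are neighbours in the order of genes in the RefSeq table (assembly version 10.1), which the rule did not use. Cldn6.1 and cldn6.2 are adjacent on both the long and the short chromosome, and all 4 were called higher in pancreas than in stomach. Cdh1.S and cdh3.S are adjacent, as are cdh2.S and dsc3.S, and krt8.1.S and krt18.1.S. The plakoglobin genes lie at the edge of runs of keratins, taken with gaps of at most 10 genes between successive members. Following jup.L are krt70.L, krt19.L, krt12.2.L, krt12.4.L, krt57.L, krt55.L and krt51.L, of which krt19.L alone was called. Following jup.S are krt70.S, krt17.S, krt19.S, krt15.1.S, krt12.2.S, krt12.4.S, krt12.5.S and krt12.6.S, of which krt19.S was called higher in pancreas and krt12.5.S lower in pancreas than in stomach.

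Lists of partner genes outside the naming rule, also chosen with earlier results of these data known, were counted beside the members. Of 21 junction partners, 1 was called between pancreas and liver, 2 between pancreas and stomach and 3 between liver and stomach, beside 7.21%, 9.31% and 11.2% of all genes, with no list-wide direction (medians of -0.06, -0.14 and 0.06 for pancreas minus liver, pancreas minus stomach and liver minus stomach). Prkcz.L, a kinase of the apical polarity complex, had 138 and 111 in pancreas, 365 and 266 in liver and 202 and 210 in stomach, and was lower in pancreas than in liver (-1.33, adjusted p = 0.0467). Pard3.S, a polarity scaffold, had 103 and 104 in pancreas, 96.9 and 94 in liver and 32.8 and 46.6 in stomach. It was higher in pancreas than in stomach (1.41, adjusted p = 0.0346) and higher in liver than in stomach (1.29, adjusted p = 0.0355). The alpha-actinin gene actn1, whose protein crosslinks actin, was lower in liver than in stomach in both copies, by -1.17 for actn1.S (adjusted p = 0.0473) and by -1.82 for actn1.L (adjusted p = 0.0463). Actn1.S had 786 and 596 in pancreas, 771 and 661 in liver and 1769 and 1468 in stomach. This copy was also lower in pancreas than in stomach (-1.23, adjusted p = 0.047). For actn1.L that difference was -1.34 and not called (adjusted p = 0.099). Another alpha-actinin gene of the list, actn4.S, had 1514 and 956 in liver and 838 and 841 in stomach. It was not called (liver minus stomach 0.52, adjusted p = 0.353).

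Of 12 epithelial regulators and surface genes, 4 were called among organs and all 4 were lower in liver than in stomach, beside 14.7% of all genes called among organs and 5.34% lower in liver than in stomach. The list's median was -0.97. Between pancreas and liver 2 were called, beside 7.21% of all genes. With the block 4 were called, and the share of all genes called with the block is not given here. Prss8.S, a membrane-anchored protease, and spint2.L, an inhibitor of such proteases, were lowest in liver and highest in stomach, as cldn4.L was. Prss8.S had 372 and 272 in pancreas, 102 and 107 in liver and 526 and 427 in stomach (pancreas minus liver 1.61, adjusted p = 0.0295, and liver minus stomach -2.18, adjusted p = 0.011). Spint2.L had 887 and 848 in pancreas, 303 and 399 in liver and 1257 and 1336 in stomach (1.32, adjusted p = 0.0356, and -1.9, adjusted p = 0.0117). Foxa1.S and rab25.L were lower in pancreas than in stomach (-2.45 and -2.38, adjusted p = 0.0152 and 0.0142) as well as lower in liver than in stomach (-1.31 and -1.27). The other copy, rab25.S, had 57.1 and 57.7 in pancreas, 184 and 111 in liver and 61.6 and 68.6 in stomach, a liver minus stomach difference of 1.14 that was not called (adjusted p = 0.0833). Of 21 other intermediate filament and mesenchymal genes, 2 were called among organs. Peripherin, prph.L, a filament protein of neurons, had 51.6 and 53.1 in pancreas, 42.2 and 49.7 in liver and 286 and 164 in stomach. It was called lower than in stomach both in pancreas (-2.05, adjusted p = 0.0289) and in liver (-2.24, adjusted p = 0.0189). The other copy, prph.S, had differences from stomach of -2.27 for pancreas and -2.12 for liver, not called (adjusted p = 0.0549 and 0.0591). Fibronectin, fn1.S, had 2392 and 1377 in pancreas, 8041 and 5432 in liver and 1004 and 851 in stomach (liver minus stomach 2.84, adjusted p = 0.0148). Vimentin, vim.L, had 623 and 440 in pancreas, 1163 and 1205 in liver and 644 and 552 in stomach, with no call, and neither of the 2 hemidesmosome genes was called.

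The buds carried the markers of their labelled organs. All 7 pancreas markers were called higher in pancreas than in liver and than in stomach, and their sum was 61587 to 83595 in pancreas, 358 to 606 in liver and 3826 to 5005 in stomach. Of the 7, 4 were also called lower in liver than in stomach. The 7 liver markers summed in replicates 1 and 2 to 1483 and 239 in pancreas, 46262 and 33279 in liver and 1470 and 982 in stomach. Of these, 6 were called lower in pancreas than in liver and 6 higher in liver than in stomach. The liver marker ttr.L was also called lower in pancreas than in stomach (-3.24, adjusted p = 0.0344). The 4 stomach markers summed to 48 and 490 in pancreas, 64 and 50 in liver and 12584 and 7181 in stomach. Of these, 3 were called lower in pancreas and 4 lower in liver than in stomach. Ciliated cell markers, 3 genes, summed to 34 to 45 in pancreas, 64 to 85 in liver and 299 to 537 in stomach, and neuron markers, 5 genes, to 195 to 238, 175 to 190 and 408 to 428. The lowest intensity over all probe sets was 0.105, so a marker value above 0 does not show that the marker was present. The part of these cells in the members' differences was not tested.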

How the data were processed

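Total RNA of the 6 bud samples was labelled with biotin and hybridised to Affymetrix Xenopus laevis arrays, per the labels. The deposited values are intensities on a linear scale; the submitters' processing notes name RMA, with no version, the design text names the Expressionist software, and how the median of each array came to be 100 is not stated in either. The intensities were taken as deposited, 120 control rows of 15611 were left out, and log2 values of 15491 probe sets were fitted with limma 3.58.1 (R 4.3.3; Python 3.11.15 for tables) with organ means on all 6 arrays and eBayes. Residual degrees of freedom were 3 and prior degrees of freedom 2.14. The fit was also run on simulated data, whose outcome is not given here. The simulated noise was independent on each array, with no shared isolation effect. Changes were put only into probe sets with a mean above 100. That run therefore cannot tell how the fit treats shared isolation effects or changes in low members.

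Gene names come from the platform annotation, brought up to date by gene ID in RefSeq: 9304 probe sets had 1 symbol, 195 several and 5992 none, and all 77 members matched. Replicate numbers pair the samples, because the titles give arrays of one number the same experiment code. Their deviations correlated at 0.173 for pancreas with liver, 0.197 for pancreas with stomach and 0.152 for liver with stomach. Over probe sets with a mean above 100 the values were higher, at 0.457, 0.482 and 0.417 in the same order. The main fit did not use this pairing. Nothing says whether one isolation's buds came from the same animals. The alternatives were the replicate block, quantile normalization, 16 added, a filter at the 40th percentile, an intensity trend, the mean of probe sets, the plain analysis of variance of the design text with a ratio above 3, and each array left out.

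Every member could be named; values of every array were given for members with a call, the brightest of each role and the other copy of those, and partner genes were named where called, at most 4 per list and pair. The members, partner lists and markers were chosen with earlier results of these data known. Promoter motifs and sequences were not analysed here.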

Additional observations from a re-analysis of the deposited data

How the results depend on the processing

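The 4 counts of members called were recomputed under each alternative. For the replicate block, 16 added, the filter, the intensity trend and the unadjusted plain test, the shares of all genes called are not given here. A changed count under these settings therefore cannot be read as particular to the members or to a partner list. Among the 3 organs, 20 members were called, 15 by the plain test at its own threshold, 25 with the replicate block and 5 to 13 with 1 array left out. Between pancreas and liver, the count of 7 became 12 with the replicate block, 14 with 16 added, 12 with the filter on low values, 16 with the intensity trend and 0 to 4 with 1 array left out. Between pancreas and stomach, the count of 14 became 23 with the intensity trend, 18 with the replicate block and 0 to 11 with 1 array left out; without pancreas replicate 1 or stomach replicate 1 it was 0, as it was over all 15491 probe sets, while 26 and 21 members had an unadjusted p under 0.05 there. Between liver and stomach, the count of 12 became 16 with the replicate block and 0 to 7 with 1 array left out. The plain test with Benjamini-Hochberg adjustment called 0 members in each case, at 15, 6, 11 and 9 unadjusted with its ratio, and 1, 1, 1 and 0 probe sets of all. For a pair, the plain test took its p from all 3 organs and only the ratio from the pair. Its counts for a pair are therefore not tests of that pair alone. Of the 33 calls of single members in a pair of organs, 32 held with the intensity trend (dsc3.S was lost), 32 with quantile normalization (gjb2.L was lost), 32 with the mean of probe sets (ctnna1.S was lost), 31 with the replicate block (ctnna1.S and krt19.S were lost), 33 with 16 added, and 24 of the 24 that passed the filter on low values. None reversed. The mean of probe sets for single members, the test between copies and the arrays left out for partner lists were chosen after seeing the data. With 1 array left out, no junction partner was called in any pair, and the epithelial regulators had 0 called between pancreas and liver, 0 to 2 between pancreas and stomach and 0 to 3 between liver and stomach; with the replicate block, 4 epithelial regulators and 2 other filament or mesenchymal genes were called between pancreas and liver. Low signal limits the precision: 13 members had a mean under 16, with a median residual SD of 1.18 on the log2 scale.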
